A study of Rattus norvegicus with 6 samples.

Results

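Astrocyte genes in the rat amygdala were examined by RNA-seq after a single low dose of ethanol. The 34 genes are widely used astrocyte markers, and they were taken by their rat symbols from the 38445 NCBI genes of the count files, where all 34 were found. The tissue came from adult male Sprague Dawley rats without genetic modification, which received an intraperitoneal injection of saline (control) or of ethanol at 1 g/kg and were killed 1 h later. RNA of 2 rats was pooled for each library, so that the 6 rats of each group gave 3 libraries. Each library held between 62576504 and 70755739 reads assigned to genes. Levels are given as CPM, the reads of a gene relative to all assigned reads of its library after TMM scaling, or, where genes are compared with each other, as TPM, which also divides by the exonic length of the gene. The comparison asked whether acute ethanol changes transcript levels in the amygdala. It used the quasi-likelihood test of edgeR over 18141 genes with Benjamini-Hochberg adjustment, and the threshold of the study, an adjusted p below 0.2. Fold changes are log2 of ethanol over control and carry the standard error (SE) of that test.

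Astrocytes are the glial cells that wrap synapses and blood vessels. Their endfeet carry water and potassium channels, their gap junctions join them into networks, they store the glycogen of the brain, and they clear glutamate from synapses and supply lipoprotein particles to neurons. When tissue is injured or stressed, astrocytes raise intermediate filament genes such as Gfap. In a dissected piece of tissue, fewer astrocytes and less RNA per astrocyte cannot be told apart, and several of the 34 genes are also transcribed elsewhere: Clu and Sparcl1 in neurons, Apoe in microglia, Vim and Id3 in blood vessels, and Vim and Sox9 in ependymal cells.

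As a group, the astrocyte genes lay near their control level. Their median fold change was 0.03 on the log2 scale, beside 0.0064 for all genes tested, and 31 of the 34 were within 0.2 of 0. With edgeR, 0 of the 34 passed the threshold (adjusted p = 1.0 for each), beside 0.0% of all genes tested, and 1 had an unadjusted p below 0.05. DESeq2, limma-voom and the likelihood ratio test of edgeR also placed 0 of the 34 below the threshold. Over all genes, where edgeR's quasi-likelihood test placed 0 genes below it and 752 had an unadjusted p below 0.05, DESeq2 placed 75 there and the likelihood ratio test 77. The study itself reported genes below this threshold, and its main text does not name the test. Groups without overlap were found for 1 of the 34, beside 8.85% of all genes tested. That member was Sox9, the transcription factor that directs astrocyte identity, which was lower in all 3 ethanol libraries than in any control library. The libraries also differed within each group, and 24 of the 34 genes had their highest level in ethanol replicate 3.

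The promoters of 4 members are shown for the reader to see the sequences upstream of genes that varied most and least between libraries. Lcat and Gfap had the widest range over the 6 libraries, S100b is among the most used markers, and Htra1 had the narrowest range. The 250 bases before the annotated start were taken from RefSeq in the build GRCr8, which is not the build of the counts. They lie at chr19:50748065-50748314 on the minus strand, at chr10:88361662-88361911 on the minus strand, at chr20:12381082-12381331 on the minus strand and at chr1:194927819-194928068 on the plus strand. Capitals mark the short recognition site of nuclear factor I (TTGGC), a family of factors required for astrocyte formation, and the CCAAT box (CCAAT), a general promoter element, each on either strand. The 2 motifs can share bases, as in ATTGGC.
Lcat: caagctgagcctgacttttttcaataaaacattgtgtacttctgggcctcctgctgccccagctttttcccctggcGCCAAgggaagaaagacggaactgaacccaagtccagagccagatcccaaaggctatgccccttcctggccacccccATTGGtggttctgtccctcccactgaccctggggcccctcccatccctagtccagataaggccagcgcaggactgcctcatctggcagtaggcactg
Gfap: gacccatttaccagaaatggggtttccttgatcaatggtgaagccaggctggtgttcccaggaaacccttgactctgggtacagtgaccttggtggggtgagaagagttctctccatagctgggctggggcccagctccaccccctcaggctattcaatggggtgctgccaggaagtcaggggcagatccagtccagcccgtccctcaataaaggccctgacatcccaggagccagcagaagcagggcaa
S100b: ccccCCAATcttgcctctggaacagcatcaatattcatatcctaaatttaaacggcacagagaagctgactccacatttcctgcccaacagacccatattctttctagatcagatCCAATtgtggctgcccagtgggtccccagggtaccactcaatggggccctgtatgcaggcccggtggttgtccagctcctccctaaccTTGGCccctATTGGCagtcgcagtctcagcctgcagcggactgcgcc
Htra1: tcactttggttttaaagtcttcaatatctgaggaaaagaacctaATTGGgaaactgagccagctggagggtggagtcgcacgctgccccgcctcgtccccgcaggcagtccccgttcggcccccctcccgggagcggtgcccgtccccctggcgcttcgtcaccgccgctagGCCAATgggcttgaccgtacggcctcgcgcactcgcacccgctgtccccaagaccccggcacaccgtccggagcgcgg
The Gfap window held neither motif, and the S100b window held 2 nuclear factor I sites and 3 CCAAT boxes. RefSeq windows were found for 31 of the 34 members, in 36 windows. The nuclear factor I site was present in 58.3% of these windows and in 40.3% of the 33469 windows of all genes. Windows of 1 gene can overlap, as for Hepacam and Apoe, so that a site can be counted in both. Counted by gene, 18 of the 31 members had a nuclear factor I site and 19 a CCAAT box. The CCAAT box was present in 20 of the 36 and in 11385 of the 33469 windows, and the SOX core (ACAAT) in 7 of the 36 and in 10049 of the 33469. The TATA box (TATAAA) was found in 11.1% of the member windows and 12.9% of all windows, and a STAT site (TTCNNNGAA) in 5.56% and 7.67%, both strands being searched for each motif. These shares describe letters and not binding, and no difference between them was tested. Members with no window were Sox9, F3 and Clu.

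The members spanned a wide range of levels. Per length, Apoe, the main lipid carrier of the brain, had the highest level at 5332 ± 519 TPM (SD, n = 6 libraries). Sparcl1, a secreted matrix protein that promotes synapse formation, followed at 3741 ± 277 TPM, then S100b, a calcium-binding protein, at 2554 ± 489 TPM. Aldoc, the brain form of the glycolytic enzyme aldolase, and Clu, a secreted chaperone, had 1699 ± 193 and 1340 ± 88.0 TPM. The lowest member was Slc39a12, a zinc transporter, at 3.24 ± 0.729 TPM, and Dio2, Sox9, F3 and Gjb6 lay between 21.2 and 33.7 TPM. In all, 19 members exceeded 100 TPM, and the 34 genes together took 2.13% of all TPM. Clu and Aldoc lay further apart than their SDs, while Ttyh1 at 879 ± 83.3 TPM and Gfap at 842 ± 272 TPM did not. For 0 of the 34 genes did exons overlap a neighbour in the same orientation, and where Aqp4 and Slc7a10 overlap an antisense neighbour, by 229 and 465 bases, the counting separated the strands. The lowest count of any member in any library was 287, so that counting error was small for all of them.

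**Figure D1:**
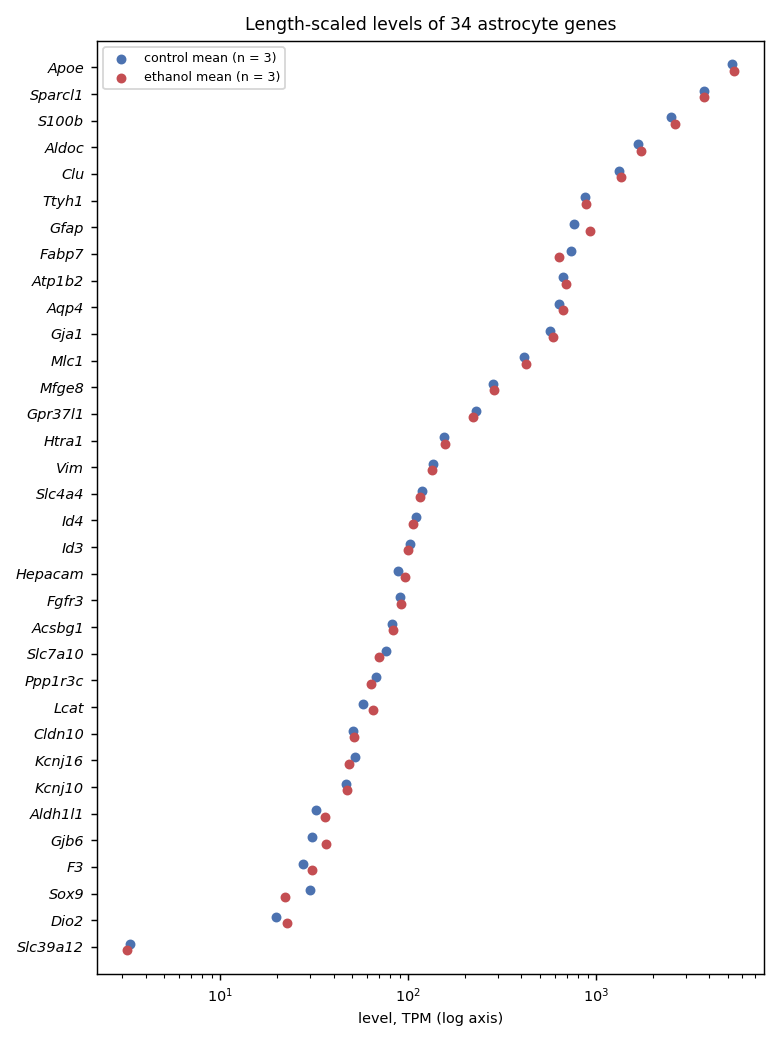
Level of each of the 34 astrocyte genes in TPM on a log axis, as the mean of the 3 control libraries (blue) and of the 3 ethanol libraries (red). The genes run from Slc39a12 at 3.24 TPM to Apoe at 5332 TPM, and the group means of a gene lie close together beside this range. Sox9 had a mean of 29.9 TPM in controls and 22.05 TPM after ethanol.

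Among the role groups, the intermediate filament and calcium-binding genes varied most within a treatment, with a median SD of 0.36 on the log2 scale. Gfap, the defining filament protein of astrocytes (NCBI gene 24387, chromosome 10 of Rnor_6.0 from 90990762 to 90999435, 9 exonic blocks), had 724, 697.5 and 929 CPM in controls and 634, 819.5 and 1419 CPM after ethanol. Both the lowest and the highest value came from ethanol libraries, and the groups overlapped. Its fold change of 0.29 was the largest positive value among the members (SE 0.28), and without ethanol replicate 3 it turned to -0.11. S100b (chromosome 20 from 13130633 to 13142856) had 1609, 1299 and 1849 CPM in controls and 1423, 1414 and 2154 CPM after ethanol. The libraries numbered 3 were highest in both groups, and the fold change was 0.07 (SE 0.20). Vim, a filament protein of immature and reactive astrocytes and of vessel and ependymal cells, was at 93.3 ± 27.9 CPM in controls and 92.4 ± 18.1 CPM after ethanol (SD, n = 3), with the highest value in control replicate 3.

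**Figure D2:**
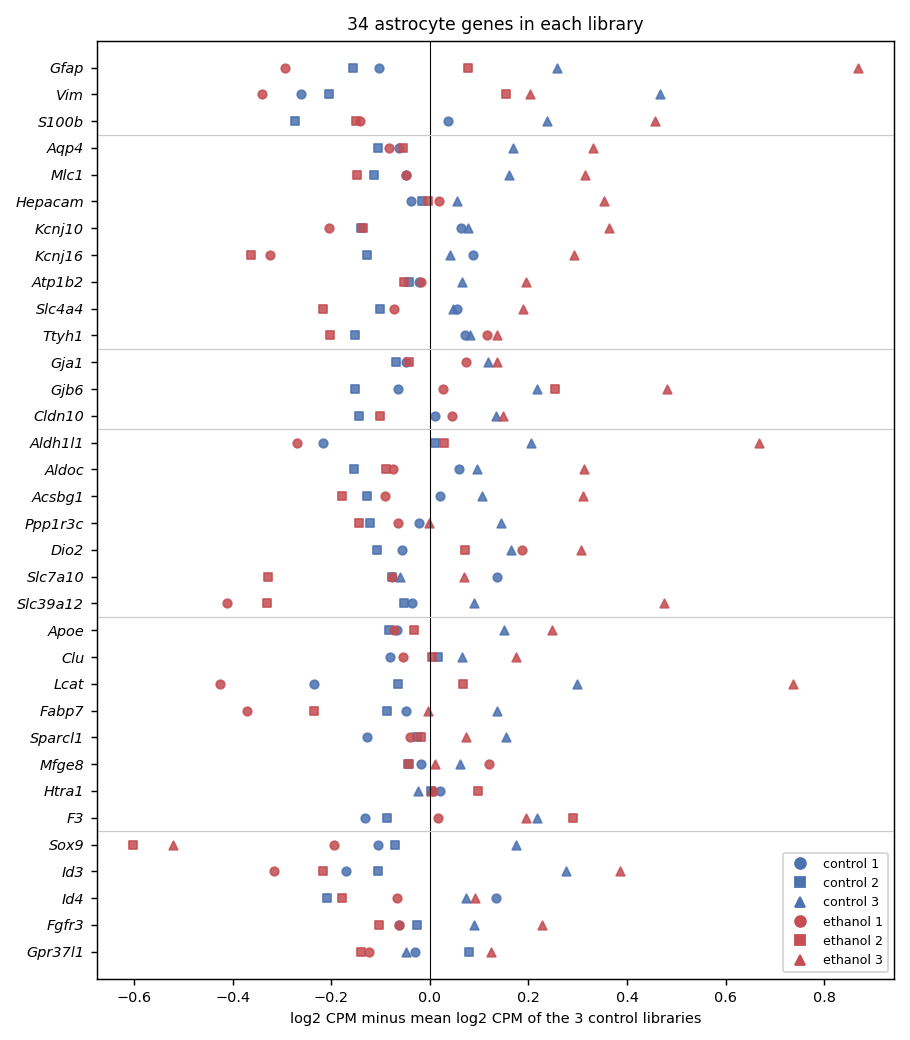
Each point is 1 library, placed by its log2 CPM minus the mean of the 3 control libraries (x axis), for the 34 genes in their role groups (y axis, separated by lines). Ethanol replicate 3 (red triangles) is the highest point for 24 genes, and for Sox9 the 3 ethanol points lie below the 3 control points.

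Genes of the endfoot and of ion homeostasis overlapped between the groups in each of the 8 cases. Aqp4, the water channel of the perivascular endfoot (NCBI gene 25293, chromosome 18 from 6766009 to 6782757), had 1191, 1157 and 1399 CPM in controls and 1175, 1198 and 1565 CPM after ethanol. Ethanol replicates 1 and 2 lay within the control range and ethanol replicate 3 above it, and the fold change was 0.07 (SE 0.14). Its membrane partners in the endfoot, Mlc1 and Hepacam, stood at 0.05 (SE 0.13) and 0.13 (SE 0.10) on the log2 scale. Ttyh1, a membrane protein of the tweety family and the highest of this group per length, had 1262, 1081 and 1272 CPM in controls and 1302, 1044 and 1320 CPM after ethanol, so that the ranges nearly coincided (fold change 0.02, SE 0.12). The inward rectifier potassium channel Kcnj10 and its partner subunit Kcnj16 were at 77.5 ± 6.35 and 90.1 ± 6.96 CPM in controls and at 79.0 ± 17.9 and 83.9 ± 22.7 CPM after ethanol (SD, n = 3). Kcnj16 had 71.8 and 69.9 CPM in ethanol replicates 1 and 2, below the lowest control at 82.3 CPM, and 110.1 CPM in ethanol replicate 3, above the highest control. Without ethanol replicate 3 its fold change moved from -0.10 to -0.35 (edgeR adjusted p = 0.286). Atp1b2, a sodium pump subunit, and Slc4a4, a bicarbonate cotransporter, stood at 0.04 (SE 0.09) and -0.03 (SE 0.11).

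Among the junction genes, Gja1, which encodes the main astrocytic connexin (NCBI gene 24392, chromosome 20 from 37876650 to 37889097), had 658, 648.5 and 738 CPM in controls and 716, 661 and 747 CPM after ethanol. The groups overlapped, and the fold change was 0.055 (SE 0.09). The second astrocytic connexin gene, Gjb6, was at 49.3 ± 6.80 CPM in controls and 58.9 ± 9.25 CPM after ethanol (SD, n = 3), a fold change of 0.26 (SE 0.13, edgeR unadjusted p = 0.0912). Its lowest ethanol value, 49.9 CPM, lay below the highest control value, 57.0 CPM. Cldn10, a claudin, stood at 0.03 (SE 0.09).

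The 7 enzymes and transporters had a median fold change of 0.03, with 4 genes above and 3 below 0. Aldoc, the highest of them, had 1050, 906 and 1077 CPM in controls and 958, 947 and 1253 CPM after ethanol (fold change 0.06, SE 0.13). Aldh1l1, a folate enzyme that serves as a pan-astrocyte marker (NCBI gene 64392, chromosome 4 from 123516553 to 123564067), had 29.5, 34.6 and 39.55 CPM in controls and 28.5, 35.0 and 54.5 CPM after ethanol. The ethanol libraries held both its lowest and its highest value, and the fold change of 0.19 was smaller than its SE of 0.23. Dio2, the deiodinase with which astrocytes activate thyroid hormone, had 45.9, 44.4 and 53.5 CPM in controls and 54.4, 50.2 and 59.1 CPM after ethanol. Ethanol replicate 2 lay below control replicate 3, and the fold change was 0.19 (SE 0.09, edgeR unadjusted p = 0.0779). Ppp1r3c, which targets a phosphatase to glycogen, Acsbg1, which activates long-chain fatty acids, Slc7a10, a carrier of small neutral amino acids, and Slc39a12 had fold changes between -0.11 and 0.03.

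Lipid carriers and secreted proteins included both the steadiest and the most variable member. Apoe (NCBI gene 25728, chromosome 1 from 80612894 to 80616820) had 2561, 2534 and 2978 CPM in controls and 2552, 2625 and 3187 CPM after ethanol. The values of the groups interleaved, and the fold change was 0.05 (SE 0.12). Sparcl1 stood at 0.0008 (SE 0.11) and Clu at 0.04 (SE 0.09). Htra1, a secreted serine protease, was at 119 ± 1.86 CPM in controls and 122 ± 4.63 CPM after ethanol (SD, n = 3), and Mfge8, a bridging protein for phagocytosis, was at 234 ± 8.95 and 239 ± 13.9 CPM. Fabp7, a fatty acid binding protein of radial glia and astrocytes, had 162.5, 158 and 185 CPM in controls and 130, 143 and 168 CPM after ethanol. Ethanol replicates 1 and 2 lay below all controls and ethanol replicate 3 within them, and the fold change was -0.20 (SE 0.11, edgeR unadjusted p = 0.0974). Lcat, which esterifies cholesterol on lipoprotein particles, ranged from 32.0 CPM in ethanol replicate 1 to 71.7 CPM in ethanol replicate 3, and F3, the tissue factor of the clotting cascade, stood at 0.16 (SE 0.11).

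**Figure D3:**
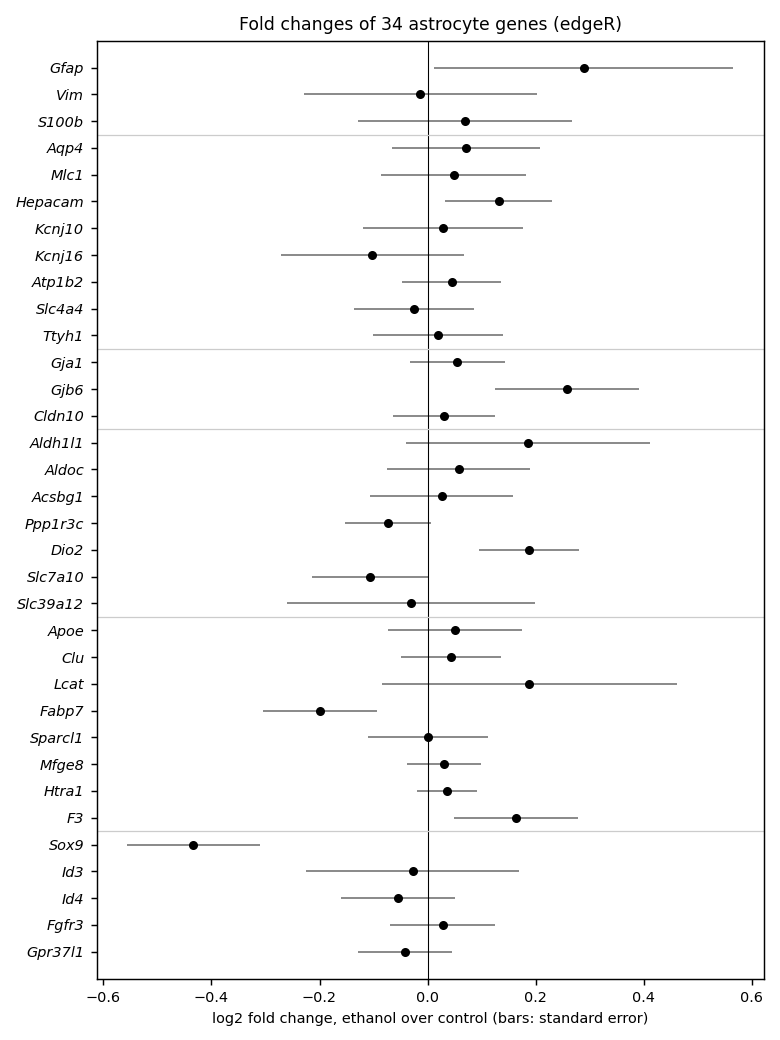
Log2 fold change of ethanol over control for each of the 34 genes (x axis), with bars of 1 SE from the edgeR fit and lines between role groups. Sox9 at -0.43 lies farthest from 0, and 31 genes lie within 0.2 of 0.

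Sox9 was the only member with an unadjusted p below 0.05. The gene (NCBI gene 140586) occupies bases 101288528 to 101294030 of chromosome 10 in Rnor_6.0, with 4032 exonic bases in 3 blocks. It received 2796, 3110 and 3292 reads in controls and 2580, 1949 and 2231 reads after ethanol, which gave 42.8, 43.8 and 51.9 CPM against 40.2, 30.3 and 32.0 CPM. Ethanol replicate 1 lay just under the lowest control, and the other 2 ethanol libraries lay further below. The mean was 46.2 ± 5.02 CPM in controls and 34.2 ± 5.29 CPM after ethanol (SD, n = 3), 25.9% lower in the fit, or -0.43 on the log2 scale (SE 0.12, edgeR unadjusted p = 0.0081, adjusted p = 1.0). A 2-sided exact permutation test gave p = 0.1, which is the lower limit of that test for 3 against 3 libraries. Sox9 did not pass the threshold of the study in the main test or in any of the 14 alternatives, where its adjusted p lay between 0.245 (DESeq2) and 1.0 and its fold change between -0.57 and -0.34.

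Few members stood apart, and their number is set here beside the shares of all genes tested. An unadjusted p below 0.05 was found for 4.15% of the 18141 genes tested (2.57% lower and 1.57% higher), and groups without overlap for 8.85% (5.19% lower and 3.66% higher). Among the members, Sox9 alone met each of these conditions, 1 of 34, and 0 of 34 were higher without overlap. The smallest adjusted p over all genes was 0.818.

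The other regulators and receptors lay close to their control level. Id3 and Id4, which encode inhibitors of basic helix-loop-helix factors, stood at -0.03 (SE 0.20) and -0.05 (SE 0.11). Fgfr3, a growth factor receptor of astrocytes, stood at 0.03 (SE 0.10). Gpr37l1, a receptor of the prosaposin type and the highest of this group per length, had 197, 212 and 194 CPM in controls and 184, 182 and 219 CPM after ethanol. The ethanol range enclosed the control range, and the fold change was -0.04 (SE 0.09).

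**Figure D4:**
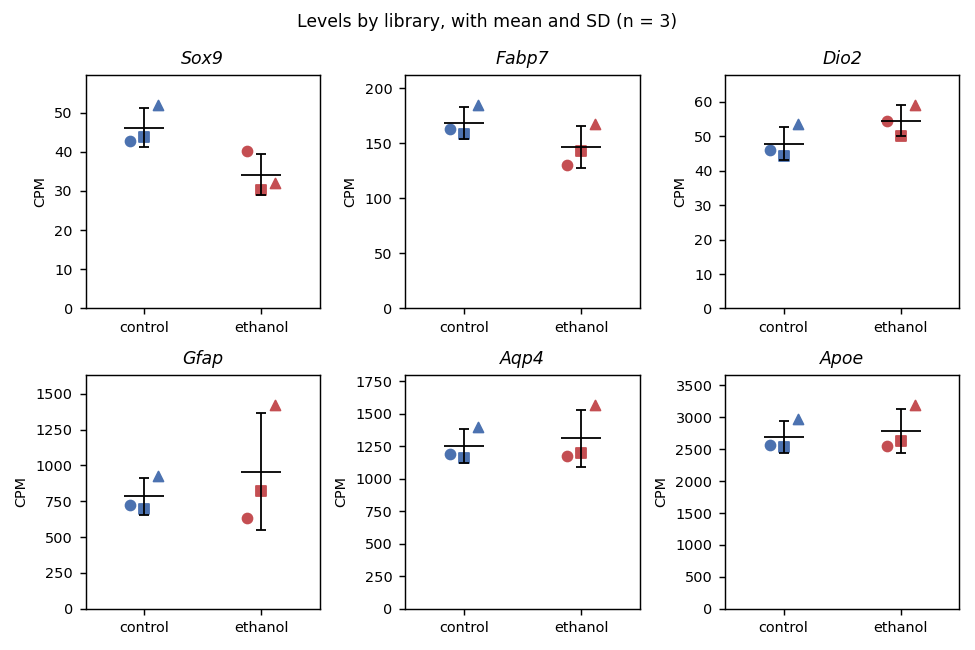
CPM of 6 astrocyte genes in the 3 control (blue) and 3 ethanol (red) libraries, with circles, squares and triangles for replicates 1, 2 and 3, black lines for the mean and bars for the SD. Sox9 is lower in each ethanol library than in each control library, with 40.2 CPM in the highest ethanol library and 42.8 CPM in the lowest control, while the groups overlap for the other 5 genes.

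Most of the 34 genes were high or low in the same libraries within a treatment. Their median log2 difference from the control mean was -0.04, -0.09 and 0.13 in control replicates 1, 2 and 3, and -0.07, -0.10 and 0.22 in ethanol replicates 1, 2 and 3. Replicate 3 was thus the highest library of both groups. In the ethanol group, replicate 3 was above the other libraries for 30 of 34 members, beside 41.2% of all genes tested, and in the control group for 28 of 34, beside 29.4%. Ethanol replicate 3 was the highest of all 6 libraries for 24 members, which is 70.6% of the members and compares with 22.7% of all genes, and it was the lowest library for 0 members. The members summed to 16900, 16870 and 21000 CPM in the ethanol libraries and to 17090, 16550 and 19440 CPM in the controls. Without ethanol replicate 3 the median fold change of the members went from 0.03 to -0.10, and 16 members changed sign. Without control replicate 2 the median was -0.01.

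Spread within a group differed among the members. The pooled within-group SD of log2 CPM had a median of 0.16 over the members and of 0.14 over all genes tested, and 10 members varied less than the median gene. Lcat, Gfap and Aldh1l1 varied most, with SDs of 0.455, 0.45 and 0.37, and Htra1 and Mfge8 least, with 0.04 and 0.07.

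Because most members followed a common level in each library, each member was also set against the median of the other 33 in the same library, a scale chosen after the values were seen. On this scale Sox9 lay at -0.07, 0.03 and 0.06 in the control libraries and at -0.12, -0.51 and -0.75 in the ethanol libraries (log2). The difference between the group means was -0.47. The relative value was lowest in ethanol replicate 3, where the subtracted median was highest. In CPM, Sox9 was lowest in ethanol replicate 2, with 30.3 against 32.0 CPM in ethanol replicate 3. Fabp7 was next, at -0.01, 0.01 and 0.02 in controls and -0.30, -0.14 and -0.23 after ethanol, a difference of -0.23 with groups that did not overlap. In the other direction, Dio2 was at -0.02, -0.02 and 0.05 in controls and 0.26, 0.17 and 0.10 after ethanol, a difference of 0.18, and Hepacam differed by 0.11, both without overlap. The remaining 30 members overlapped between the groups on this scale. Of all genes tested, 5.45% did not overlap when set against the members in this way, 4.01% lower and 1.44% higher, against 8.85% without this step. Subtracting the median takes the common level out of the members but adds it to genes that do not share it. The share of all genes on this scale is therefore not a like background for the members. The members' count of 4 in 34 was not tested against this share.

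Further astrocyte genes gave similar values. Over 30 of them the fold change had a median of 0.01 and ran from -0.20 to 0.14. In edgeR, 1 of 30 had an unadjusted p below 0.05, beside 4.15% of all genes tested, and 0 of 30 an adjusted p below 0.2. The median of this list changed sign with single libraries left out, to -0.085 without ethanol replicate 3, -0.0185 without control replicate 1 and -0.017 without control replicate 2. The gene with an unadjusted p below 0.05 was Slco1c1, a thyroid hormone carrier of astrocytes and brain vessels. It had 100.5, 101 and 108 CPM in controls and 98.6, 85.6 and 85.9 CPM after ethanol. Its groups did not overlap, although ethanol replicate 1 lay close to the lowest control, and its fold change was -0.20 (edgeR unadjusted p = 0.0259, adjusted p = 1.0). The glutamate transporters Slc1a2 and Slc1a3 and the glutamine synthetase gene Glul stood at 0.02, -0.03 and 0.08. The level of this list by library was close to that of the members, at -0.04, -0.06 and 0.11 in controls and -0.07, -0.10 and 0.20 after ethanol, and 19 of the 30 genes were highest in ethanol replicate 3.

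Genes known to rise in reactive astrocytes were spread around 0. Of 20 such genes, 19 were tested, with a median fold change of 0.03, and 10 were higher and 9 lower on average. Serpina3n was not tested, with 0 reads in each control library and 1, 2 and 0 reads in ethanol replicates 1, 2 and 3. Osmr, a subunit of the oncostatin M receptor, had an unadjusted p below 0.05, with 2.25, 1.77 and 1.94 CPM in controls and 2.59, 3.02 and 2.83 CPM after ethanol. All ethanol values were above the controls, and the fold change was 0.50 (edgeR unadjusted p = 0.0085, adjusted p = 1.0). Stat3, a transcription factor of cytokine signalling, also had groups without overlap, at 0.12. Thus 1 of the 19 had an unadjusted p below 0.05 in edgeR, beside 4.15% of all genes tested. Higher without overlap were 2 of the 19, beside 3.66% of all genes tested. Fold changes of the others ran from -0.69 (Ptx3) to 0.29 (C3), with Cxcl10 at -0.41 and Lcn2, a siderophore-binding protein, at -0.14. Cd44, a hyaluronan receptor, stood at 0.27, with 28.8 CPM in ethanol replicate 3 and 13.3 and 17.8 CPM in ethanol replicates 1 and 2.

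Other cell types of the dissected tissue were compared through their own markers. Neuron, microglia, and oligodendrocyte precursor markers had median fold changes of 0.11, 0.0995 and 0.11, endothelial and mural markers -0.04 and leptomeningeal markers -0.15. Of these lists, 1 of 11 microglia markers (Tmem119, 0.57, higher without overlap) and 1 of 6 leptomeningeal markers (Dcn, -0.69, groups overlapping) had an unadjusted p below 0.05 in edgeR, and 0 markers had an adjusted p below 0.2. Groups also did not overlap for the precursor marker Cacng4 (0.11, higher) and the endothelial marker Ocln (-0.18, lower). Of all genes tested, 4.15% had an unadjusted p below 0.05 and 8.85% had groups without overlap. Without control replicate 3 the leptomeningeal median turned to 0.25 and the endothelial and mural median to 0.029. The neuron median lay between 0.026 and 0.17 and the microglia median between 0.027 and 0.15 with 1 library left out, the lowest being without ethanol replicate 2 and ethanol replicate 3. Oligodendrocyte markers varied more, at 0.51, -0.50 and 0.0021 in controls and -0.25, 0.11 and 0.58 after ethanol (log2, median over 12 genes), with their highest level in ethanol replicate 3, as for the astrocyte genes. Their median fold change of 0.16 turned to -0.097 without that library and to -0.053 without control replicate 2.

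Markers of the ventricle wall were lower on average after ethanol, as Sox9 was. For choroid plexus epithelium, 13 of 14 tested markers had a lower mean after ethanol and 7 an unadjusted p below 0.05 in edgeR, with 0 at an adjusted p below 0.2, and the median fold change was -1.75. The summed level of the 15 matched markers was 830.4, 1543 and 1201 CPM in controls and 125, 152 and 774 CPM after ethanol. Its most abundant marker, Ttr, the thyroid hormone carrier of cerebrospinal fluid, was at 5.42 and 4.34 CPM in ethanol replicates 1 and 2 and at 425 CPM in ethanol replicate 3, against 462 to 995 CPM in controls, and Otx2 had 1 read in control replicate 2 and 0 in every other library. For ependyma and motile cilia, 13 of 13 tested markers were lower on average. Of these, 11 had an unadjusted p below 0.05 in edgeR, with 0 at an adjusted p below 0.2. Their median fold change was -0.51, and the summed level was 144, 193 and 163 CPM in controls and 121, 125 and 129 CPM after ethanol. An unadjusted p below 0.05 was found in edgeR for 4.15% of all genes tested, 2.57% lower. The markers of each list share a tissue and are not separate observations. Whether they differed through dissection or through ethanol was not tested. Sox9 is also transcribed in ependymal cells. Ethanol replicate 3, in which Ttr and the summed choroid plexus markers were close to control replicate 1, had 32.0 CPM of Sox9, below the controls, while the sum and the median of its ependyma and motile cilia markers were below the controls as well. Single markers of that list were not all below them, since Foxj1, the regulator of motile cilia, had 13.9 CPM in ethanol replicate 3 and 11.9 CPM in control replicate 1. The part of these cells in the Sox9 difference was not tested.

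**Figure D5:**
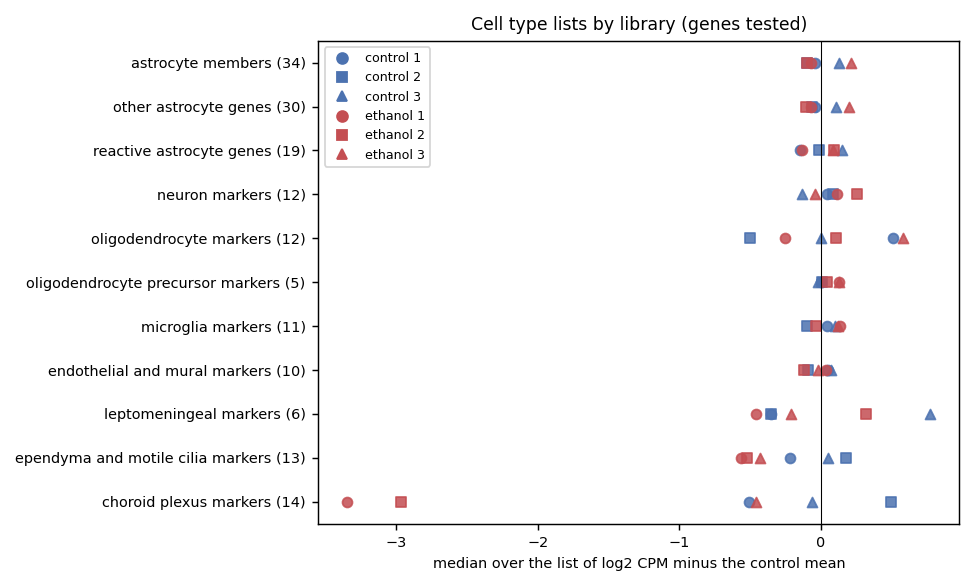
Median over each cell type list of log2 CPM minus the control mean (x axis), 1 point per library, with the number of genes tested in parentheses. Astrocyte genes lie between -0.10 and 0.22, the choroid plexus markers lie at -3.35 and -2.96 in ethanol replicates 1 and 2, and the ependyma and motile cilia markers lie between -0.57 and -0.43 in the 3 ethanol libraries.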

How the data were processed

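RNA-seq was carried out on 6 libraries of amygdala RNA, 3 per group, each from 2 rats. Per the file headers and labels, the authors aligned single-end reads with STAR 2.7.0f to Rnor_6.0 and deposited raw counts from featureCounts 1.6.3, reverse-stranded and summed over the exons of a gene, without normalization. Symbols were matched by NCBI gene ID to a RefSeq table (29322 of 38445 IDs). Library totals lay between 62576504 and 70755739, where 3 counts are 0.0424 to 0.0479 CPM, a floor for counting error only.

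Counts were filtered with filterByExpr (minimum 10 counts, 15 in total), scaled by TMM and compared with edgeR 4.0.16 (glmQLFit, glmQLFTest) in R 4.3.3. The standard error is the absolute log2 fold change divided by the square root of F. Log2 CPM carried a prior count of 2. Scripts were tested on simulated data. TPM was computed from counts and exonic length.

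The members and lists were chosen with earlier results of these data known. Values in every library are given for the highest member per length of each role group, Gfap, Aqp4, Aldh1l1, S100b, members with an unadjusted p below 0.05 or without overlap, and the extreme fold changes. Alternatives were DESeq2 1.42.0, limma 3.58.1 (voom), edgeR's likelihood ratio test, other scalings and filters, the replicate number as a block, and leaving out each library. Other assays of the study were not analysed here.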

Additional observations from a re-analysis of the deposited data

How the results depend on the processing

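The number of members with an adjusted p below 0.2 was 0 in the main test and in all 14 alternatives. Over all genes, DESeq2 gave 75 and edgeR's likelihood ratio test 77 genes below 0.2, against 0 in the main test, and the fits without 1 library gave 0 to 83, with 83 without ethanol replicate 3 and 4 without ethanol replicate 1. Without 1 library, the members with an unadjusted p below 0.05 numbered 1 to 4, with Kcnj16, Slc39a12 and Fabp7 beside Sox9 without ethanol replicate 3 and Gjb6, Dio2 and F3 beside Sox9 without control replicate 3. In these fits 8.87% and 3.1% of all genes had an unadjusted p below 0.05. The median log2 fold change ran from -0.057 to 0.18 for the reactive astrocyte genes, from 0.084 to 0.15 for the oligodendrocyte precursor markers and from -3.37 to -1.29 for the choroid plexus markers. Sox9 kept its sign in each fit. Deviations from the group means correlated by 0.0264, 0.388 and 0.211 for the replicate numbers 1, 2 and 3 over 14241 genes. Controls 2 and 3 were closest to the ethanol library of the same number, while control 1 was closest to ethanol 3 (0.305). Whether the replicate numbers pair the libraries was not tested. With the replicate block, 4 members (Gjb6, Dio2, Fabp7 and Sox9) had an unadjusted p below 0.05, beside 5.6% of all genes in that fit, against 1 without it, and 0 had an adjusted p below 0.2. Small log2 fold changes changed sign: Vim was at 0.0054 with the replicate block and 0.0048 with limma-voom, Ttyh1 at -0.0051 with library totals alone, and Sparcl1 at -0.0022 with DESeq2 and with its size factors, -0.025 with library totals alone and -0.0044 with the filter at 1 CPM. Relative to the other members, Kcnj10 was at -0.0065, Ttyh1 at -0.0067, Acsbg1 at -0.0014 and Sparcl1 at -0.022. Sign changes with 1 library left out came to 16 members without ethanol replicate 3, 8 without control replicate 2 and 4 to 6 for each other library. The ranges of log2 fold change were Gfap from -0.11 to 0.51, Vim from -0.15 to 0.26, S100b from -0.16 to 0.19, Aqp4 from -0.0737 to 0.16, Mlc1 from -0.10 to 0.14, Kcnj10 from -0.17 to 0.13, Kcnj16 from -0.35 to 0.0145, Atp1b2 from -0.0355 to 0.0917, Slc4a4 from -0.14 to 0.0625, Ttyh1 from -0.0516 to 0.12, Cldn10 from -0.0377 to 0.10, Aldh1l1 from -0.12 to 0.37, Aldoc from -0.0854 to 0.13, Acsbg1 from -0.14 to 0.12, Ppp1r3c from -0.13 to 0.0028, Slc39a12 from -0.37 to 0.13, Apoe from -0.0554 to 0.13, Clu from -0.0254 to 0.0904, Lcat from -0.18 to 0.42, Sparcl1 from -0.069 to 0.0819, Mfge8 from -0.016 to 0.0664, Id3 from -0.28 to 0.12, Id4 from -0.15 to 0.0073, Fgfr3 from -0.0822 to 0.09, Gpr37l1 from -0.13 to 0.0049. Each member had at least 287 counts in every library.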
